A study of Homo sapiens with 6 samples.

Results

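The genes described here number 10, namely 8 members of the SLC2A transporter family (SLC2A1, SLC2A3, SLC2A5, SLC2A6, SLC2A9, SLC2A10, SLC2A13 and SLC2A14) and both sodium-coupled vitamin C transporters (SLC23A1 and SLC23A2). They were taken by symbol from the 60660 gene IDs measured by RNA-seq, and all 10 were found. The cells were of OCI-AML3, a long-established human line from an acute myeloid leukaemia. In 3 libraries the cells overexpressed SLC2A3, and in the other 3 they carried the empty pLenti vector. Cells of both groups were treated with vitamin C at 250 µM, so every difference below was measured in its presence, and no untreated cells are analysed here. The labels name neither the promoter of the vector nor the stretch of SLC2A3 that it carries, and they do not say whether each line was a single clone.

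Most SLC2A proteins let hexoses cross membranes down their gradient, without ions or ATP. Among the members here, SLC2A13 instead carries myo-inositol together with protons, and SLC2A9 carries urate. GLUT1 and GLUT3, the products of SLC2A1 and SLC2A3, also carry dehydroascorbic acid, the oxidised form of vitamin C, which cells reduce back to ascorbate once it is inside. SLC23A proteins instead take up ascorbate itself together with sodium, and human myeloid leukaemia cells have been reported to take up the vitamin mainly in its oxidised form through glucose transporters.

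Depth was 31054462 to 35770556 gene reads per library, and the unit used throughout is the normalised read, a read count divided by the library's scaling factor. All 10 myeloid leukaemia markers checked (PTPRC, CD33, ANPEP, MPO, SPI1, CEBPA, CSF1R, CSF3R, HOXA9 and MEIS1) averaged at least 10 normalised reads, and their sum was 47283 to 52126 in the SLC2A3 overexpression libraries and 46743 to 48445 in the empty vector libraries. None of the 10 passed limma's test. An unadjusted p under 0.05 was reached by 4 of the 10 (SPI1 and PTPRC at higher values, ANPEP and CSF1R at lower), against 11.8% of all tested genes. The largest difference was in CSF1R, at 292 ± 45.2 in SLC2A3 overexpression cells and 391 ± 28.7 in empty vector cells (SD, n = 3 each; limma adjusted p = 0.0587). The lymphoid and erythroid markers CD3D, CD3E, MS4A1 and HBB were at 0 in every library. Replicate 2 stood apart within each group in RN7SL1, a noncoding RNA of the signal recognition particle, with 6026 against 2233 and 1922 normalised reads in the other SLC2A3 overexpression libraries and 1812 against 538 and 705 in the other empty vector libraries. Values that these libraries changed in call or direction, or by over 1.5 times, are given below without them as well.

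SLC2A3 (ENSG00000059804.16, chromosome 12, 7919230 to 7936275, minus strand, GRCh38 as in GENCODE 29) was the gene introduced, so its level is a check of the labels. It had 4056, 3716 and 4054 normalised reads in the 3 SLC2A3 overexpression libraries, against 1194, 1183 and 1257 in the 3 empty vector libraries. The groups were far apart, with the lowest SLC2A3 overexpression library well above the highest empty vector library. The means were 3942 ± 196 and 1211 ± 40.2 (SD, n = 3 each), a 3.25-fold difference (log2 fold change 1.70, 95% interval 1.58 to 1.82, limma adjusted p = 7.95e-18). SLC2A3 was thus also expressed in cells with the empty vector alone. Because the values are counted per gene, reads from the vector and from the cells' own gene cannot be told apart.

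SLC2A14 encodes GLUT14, a testis-enriched glucose transporter that arose as a duplicate of SLC2A3. It lies on the same strand of chromosome 12 (7812512 to 7891148), 28081 bases from SLC2A3. Its annotated coding sequence matched that of SLC2A3 at 1440 of 1491 aligned bases, 96.6% identity, whereas SLC2A1 and SLC2A3 were 67.7% identical. Of all 75-base stretches of the SLC2A3 coding sequence, 14.8% occurred unchanged in SLC2A14 transcripts and 0 in those of SLC2A1, and the longest run without a difference was 137 bases. The 60-base windows below are from GENCODE 29 transcripts on GRCh38, minus strand, and are shown because the first pair differs at several bases, while a read that lies wholly within the second cannot be assigned to either gene. Capitals mark the 7 bases at which the pair with the most differences differs, in exon 5 of the annotated SLC2A3 transcript (chr12:7930542-7930601) and exon 11 of that of SLC2A14 (chr12:7828766-7828825).
SLC2A3, window with most differences: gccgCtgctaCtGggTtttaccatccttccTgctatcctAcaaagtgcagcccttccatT
SLC2A14, window with most differences: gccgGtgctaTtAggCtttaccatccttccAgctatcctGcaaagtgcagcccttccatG
The second pair, from exon 3 of SLC2A3 (chr12:7933014-7933073) and exon 9 of SLC2A14 (chr12:7831631-7831690), holds 0 differences.
SLC2A3, window with fewest differences: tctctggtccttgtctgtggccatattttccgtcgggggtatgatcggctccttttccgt
SLC2A14, window with fewest differences: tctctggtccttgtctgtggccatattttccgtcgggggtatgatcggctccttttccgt

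SLC2A14 had 13.0, 8.63 and 5.34 normalised reads in the SLC2A3 overexpression libraries, against 8.15, 12 and 9.01 in the empty vector libraries. The groups overlapped, with the highest and the lowest value both among the SLC2A3 overexpression libraries. The sums were 28 reads (95% Poisson interval 18.6 to 40.5) and 29 reads (19.4 to 41.6), intervals that cover counting error only. The log2 fold change was -0.16 (95% interval -1.29 to 0.98, limma adjusted p = 0.956), and -0.02 without both libraries highest in RN7SL1. On all 6 libraries a change of about the size of that in SLC2A3 lay outside this interval. No source used here says how reads in the shared stretches were assigned, so the division of reads between both genes is uncertain.

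**Figure D1:**
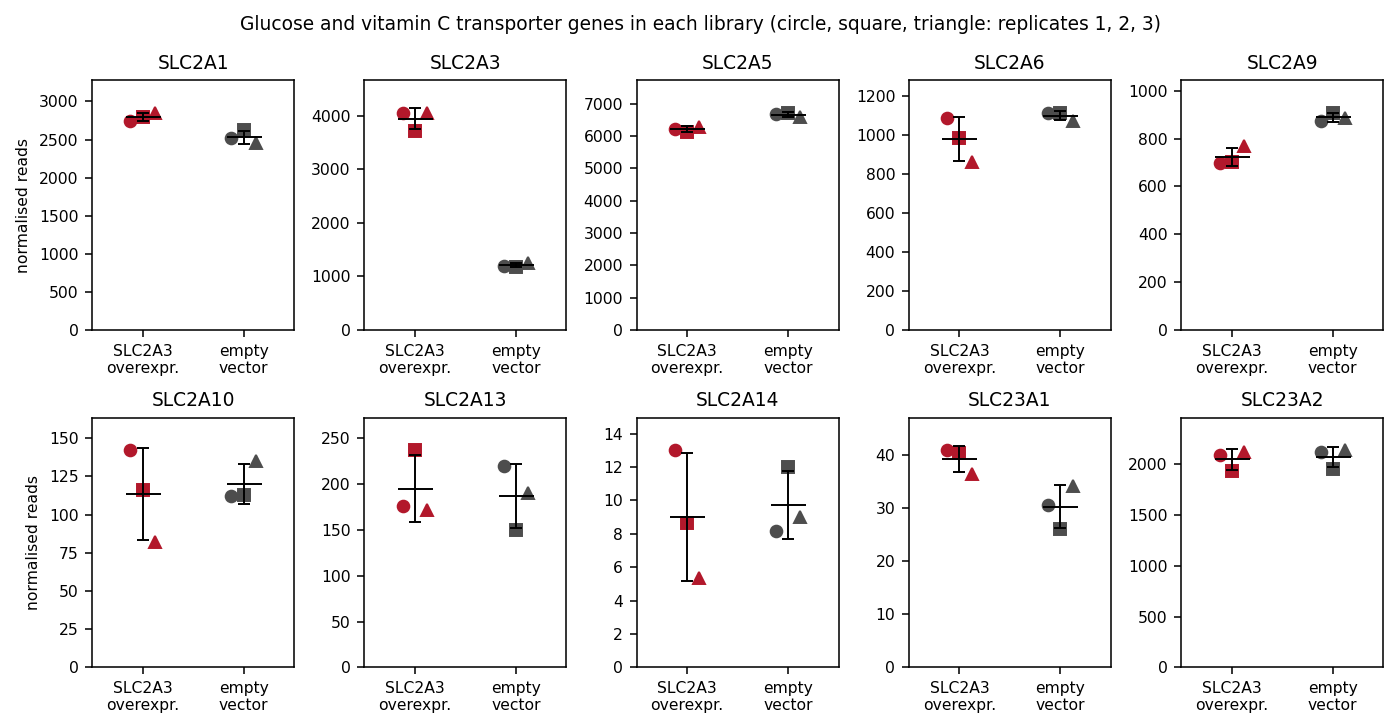
Normalised reads of the 10 transporter genes in each library, with SLC2A3 overexpression on the left of each panel and empty vector on the right. Points are libraries and bars are the mean and SD of 3; each panel has its own linear axis from 0. The SLC2A3 groups are far apart (means 3942 and 1211), the SLC2A9 groups are apart by less (723 and 889), and 5 of the 10 genes have overlapping groups.

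Across the 10 genes, all of which passed the filter on low values, limma called 1 higher (SLC2A3) and 1 lower (SLC2A9) in SLC2A3 overexpression cells at an adjusted p under 0.05. Among all 28015 genes tested, 1.49% were called, 0.692% higher and 0.8% lower. The groups did not overlap for 5 of the 10 genes, 3 higher (SLC2A1, SLC2A3 and SLC23A1) and 2 lower (SLC2A5 and SLC2A9), against 16.3% of all tested genes, 8.04% higher and 8.27% lower. An unadjusted p under 0.05 was reached by 5 of the 10, against 11.8% of all tested genes. With recovered reads, edgeR's quasi-likelihood test called the same genes among 9 of the 10 that it tested, against 3.29% of all genes, and DESeq2 called them among 6 with an adjusted p, against 7.98%. The median log2 fold change of the 10 was -0.06, and that of all tested genes was 0.0014. Each count of members above includes SLC2A3, the gene introduced. The shares also compare unlike levels, as 8 of the 10 averaged at least 100 normalised reads and the filter on all genes was 1.

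SLC2A1 (chromosome 1, 42925375 to 42959176) encodes GLUT1, the basal glucose transporter of most proliferating cells. Its levels were 2742, 2797 and 2850.5 normalised reads in SLC2A3 overexpression libraries, against 2516, 2622 and 2449 in empty vector libraries. Every SLC2A3 overexpression library was above every empty vector library. The difference was small, with means of 2797 ± 54.2 and 2529 ± 87.4 (SD, n = 3 each), and did not pass the test (log2 fold change 0.15, 95% interval 0.04 to 0.25, limma adjusted p = 0.212). The upper bound of that interval corresponds to a 1.19-fold difference.

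SLC2A5 (chromosome 1, 9035107 to 9088478) encodes GLUT5, the fructose transporter, and over merged exons was the highest of the 10 genes per kb in both groups, as described below with the length on which this rests. It had 6223, 6111 and 6288 normalised reads in SLC2A3 overexpression libraries, against 6686, 6714 and 6575 in empty vector libraries. All 3 SLC2A3 overexpression values were below all 3 empty vector values. The log2 fold change of -0.10 (95% interval -0.19 to -0.01) did not pass the test (limma adjusted p = 0.314).

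SLC2A9 (chromosome 4, 9771153 to 10054936) encodes GLUT9, a urate transporter. Its normalised reads numbered 697, 704 and 768 in SLC2A3 overexpression libraries, against 872, 908 and 886 in empty vector libraries. The groups did not overlap, with all 3 SLC2A3 overexpression libraries below all 3 empty vector libraries. The gene fell by 18.6%, at 723 ± 39.0 against 889 ± 18.2 (SD, n = 3 each; log2 fold change -0.30, SE 0.08, 95% interval -0.45 to -0.14, limma adjusted p = 0.0368). As RNA was extracted from whole cultures, fewer cells that express a gene and less of its RNA per cell cannot be told apart.

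The SLC2A9 call rested on all 6 libraries. The limma adjusted p was 0.0986, 0.115 and 0.0610 without SLC2A3 overexpression replicate 1, 2 or 3, and 0.0819, 0.106 and 0.133 without empty vector replicate 1, 2 or 3. The log2 fold change stayed between -0.34 and -0.27 in those 6 fits. Without both libraries highest in RN7SL1 it was -0.26 (limma adjusted p = 0.160).

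SLC2A6 (chromosome 9, 133471095 to 133479137) encodes GLUT6, a transporter of lysosomal membranes. Its values were 1089, 985 and 864 normalised reads in SLC2A3 overexpression libraries, against 1111, 1114 and 1072 in empty vector libraries. Replicate 1 of the SLC2A3 overexpression group lay within the empty vector range and replicate 3 was the lowest of all. The log2 fold change of -0.17 (95% interval -0.33 to -0.02) did not pass the test (limma adjusted p = 0.357), and it lay between -0.25 and -0.09 when single libraries were left out.

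SLC2A10 (chromosome 20, 46709487 to 46736347, plus strand) encodes GLUT10, whose loss causes arterial tortuosity syndrome and which carries dehydroascorbic acid. It had 142, 116 and 82.2 normalised reads in SLC2A3 overexpression libraries, against 112, 113 and 135 in empty vector libraries. The groups overlapped, and the SLC2A3 overexpression values spanned the empty vector range on both sides (log2 fold change -0.11, 95% interval -0.51 to 0.29, limma adjusted p = 0.891). It was -0.19 without both libraries highest in RN7SL1.

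SLC2A13 (chromosome 12, 39755021 to 40106089) encodes HMIT, a transporter of myo-inositol coupled to protons. Its normalised reads were 176, 237 and 172 in SLC2A3 overexpression libraries, against 220.0, 150.0 and 190.2 in empty vector libraries. The groups overlapped, with replicate 2 the highest of the SLC2A3 overexpression libraries and the lowest of the empty vector libraries (log2 fold change 0.06, 95% interval -0.26 to 0.39, limma adjusted p = 0.933). Without those replicates, which are also both libraries highest in RN7SL1, the log2 fold change was -0.23 (limma adjusted p = 0.670).

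Of the vitamin C transporters, SLC23A2 (chromosome 20, 4852356 to 5010293) was the higher per length in both groups. It encodes SVCT2, the sodium-coupled transporter of most tissues. SLC23A2 had 2090.2, 1933 and 2123 normalised reads in SLC2A3 overexpression libraries, against 2123, 1953 and 2139 in empty vector libraries. These ranges nearly coincided, and the 95% interval of the log2 fold change, -0.14 to 0.11 around -0.02, corresponds to fold changes of 0.909 to 1.08 (limma adjusted p = 0.960).

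SLC23A1 (chromosome 5, 139367196 to 139384553) encodes SVCT1, the form of intestine and kidney. It had 40.9, 40.3 and 36.3 normalised reads in SLC2A3 overexpression libraries, against 30.6, 26.0 and 34.0 in empty vector libraries. The groups did not overlap, but the sums were only 120 and 90 reads, and the difference did not pass the test (log2 fold change 0.37, 95% interval -0.28 to 1.02, limma adjusted p = 0.738).

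**Figure D2:**
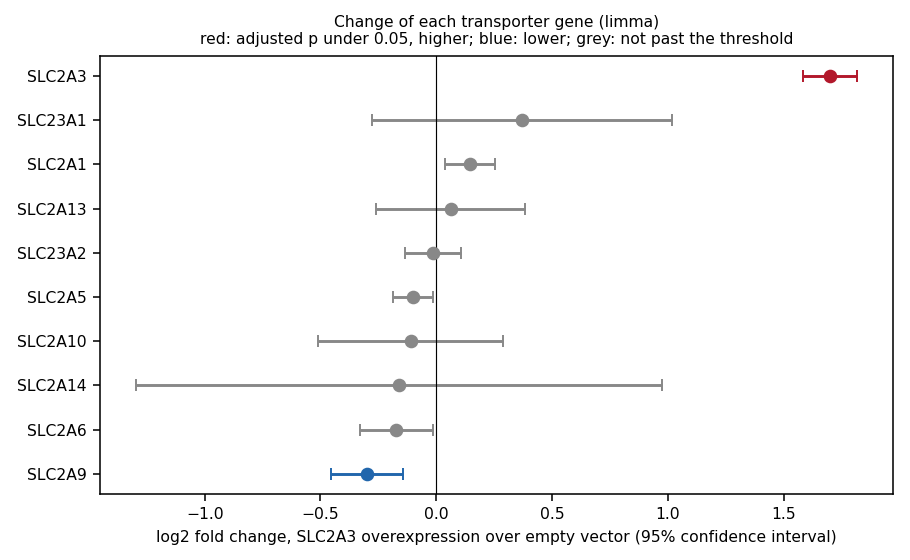
Log2 fold change of each of the 10 genes, SLC2A3 overexpression over empty vector (horizontal axis), with 95% confidence intervals from limma and genes in order of their change. SLC2A3 at 1.70 and SLC2A9 at -0.30 passed the test, the other 8 did not, and the intervals are widest for the genes with fewest reads, SLC2A14 and SLC23A1.

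To compare levels between genes, normalised reads were divided by the length of the merged exons, giving normalised reads per kb. In SLC2A3 overexpression cells the order was SLC2A5 at 927 ± 13.4 per kb, SLC2A3 at 640 ± 31.8, SLC2A1 at 592 ± 11.5, SLC2A6 at 277 ± 31.8, SLC23A2 at 273 ± 13.5 and SLC2A9 at 109 ± 5.89 (SD, n = 3). Below these came SLC2A10 at 22.7 ± 6.0 per kb, SLC2A13 at 19.4 ± 3.64, SLC23A1 at 12.2 ± 0.772 and SLC2A14 at 1.61 ± 0.689. The ranges of 3 libraries overlapped between SLC2A3 and SLC2A1, between SLC2A6 and SLC23A2, and between SLC2A10 and SLC2A13. The overlap between SLC2A3 and SLC2A1 was marginal, and within each library SLC2A3 per kb was 1.13, 1.02 and 1.09 times SLC2A1 per kb.

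In empty vector cells SLC2A5 was again first at 995 ± 11.0 per kb, followed by SLC2A1 at 535 ± 18.5, SLC2A6 at 311 ± 6.61, SLC23A2 at 276 ± 13.7, SLC2A3 at 197 ± 6.53 and SLC2A9 at 134 ± 2.76 (SD, n = 3). SLC2A3 thus had rank 2 of 10 in SLC2A3 overexpression cells and rank 5 in empty vector cells. SLC2A10, SLC2A13, SLC23A1 and SLC2A14 were last, at 24.0, 18.6, 9.43 and 1.74 per kb, and here the ranges of no 2 neighbours overlapped. Set among 15416 tested protein-coding genes, SLC2A3 per kb was above 85.1% of them in SLC2A3 overexpression cells and above 62.9% in empty vector cells, while SLC2A5 was above 89.9% and 90.5%.

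**Figure D3:**
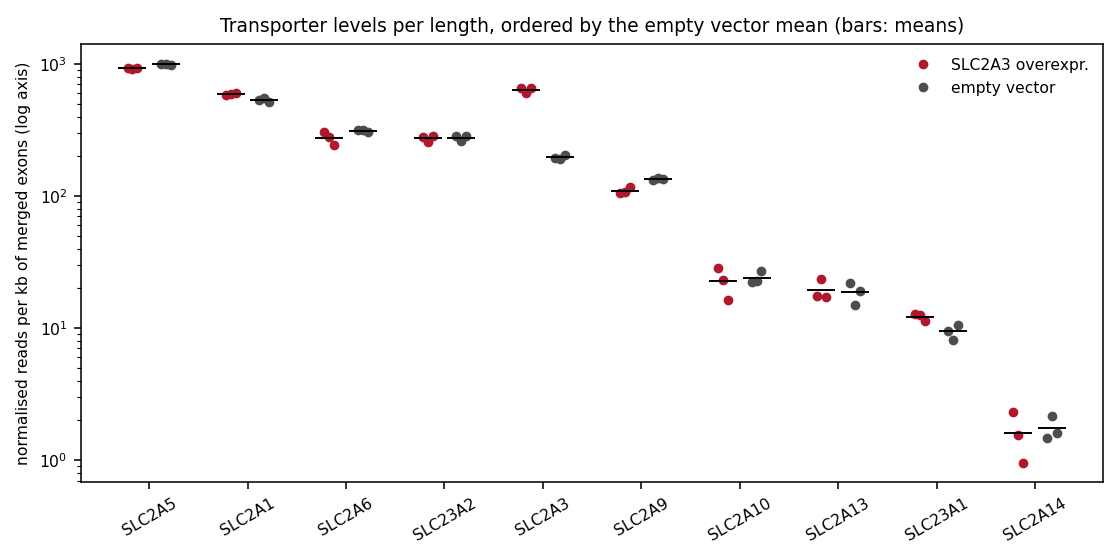
Normalised reads per kb of merged exons (log axis) for the 10 genes, ordered by the empty vector mean, with SLC2A3 overexpression libraries left of empty vector libraries for each gene. Points are libraries and bars are means of 3. SLC2A3 lies beside SLC2A1 in SLC2A3 overexpression cells (640 and 592 per kb) and between SLC23A2 and SLC2A9 in empty vector cells (197 per kb).

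The order depends on the length used. With the longest annotated transcript, SLC2A9 stood at 332 per kb in SLC2A3 overexpression cells and 409 in empty vector cells, ranks 4 and 3, and SLC2A3 had ranks 2 and 6. If all added SLC2A3 reads lay on its 1491-base coding sequence, SLC2A3 would stand at 2028 ± 131 per kb in SLC2A3 overexpression cells (SD, n = 3), above SLC2A5 at 927. On that length SLC2A3 would be 51.0 ± 1.54% of the 8 SLC2A genes per kb, these together would come to 3977 ± 142 per kb, and SLC2A1 and SLC2A3 would sum to 9.20 ± 0.0425 times the SLC23A genes (SD, n = 3). The values per kb given next use merged exons, and which length applies to the added reads was not tested.

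The make-up of the SLC2A transcripts changed with SLC2A3. SLC2A3 made up 26.3 ± 0.874% of the normalised reads on the 8 SLC2A genes in SLC2A3 overexpression libraries, against 9.54 ± 0.407% in empty vector libraries (SD, n = 3 each). Per kb the share was 24.7 ± 0.857% in SLC2A3 overexpression cells and 8.88 ± 0.397% in empty vector cells (SD, n = 3 each). The share of SLC2A5 per kb was 35.8 ± 0.430% and 44.9 ± 0.161%, and that of SLC2A1 was 22.9 ± 0.695% and 24.2 ± 0.552%, in SLC2A3 overexpression and empty vector cells. The groups did not overlap for any of these shares, which are bound to each other because they sum to a whole.

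The 8 SLC2A genes together came to 2589 ± 44.7 normalised reads per kb in SLC2A3 overexpression cells and 2216 ± 26.3 in empty vector cells (SD, n = 3 each), a 1.17-fold difference, which would be 1.79-fold with the added reads on the coding sequence. Without SLC2A3 the sums were 1949 ± 19.5 and 2019 ± 32.5, with all 3 SLC2A3 overexpression libraries below all 3 empty vector libraries. Among the more abundant genes in this sum, SLC2A5, SLC2A6 and SLC2A9 were lower and SLC2A1 was higher, and only SLC2A9 passed limma's test. Of all single genes tested, 16.3% had groups that did not overlap. SLC23A1 and SLC23A2 together were at 285 ± 13.1 per kb in SLC2A3 overexpression cells and 285 ± 14.9 in empty vector cells. The sum of SLC2A1 and SLC2A3, whose products carry the oxidised vitamin, was 4.33 ± 0.0907 times that of the SLC23A genes in SLC2A3 overexpression cells and 2.57 ± 0.186 times in empty vector cells. This sum includes SLC2A3, the gene introduced. It leaves out SLC2A10, whose product also carries the oxidised vitamin, at 22.7 per kb in SLC2A3 overexpression cells and 24.0 in empty vector cells. These are sums of transcript levels, and neither protein nor transport was measured here.

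Among 75 further genes in 6 lists around these transporters, 59 were tested, and limma called 2 higher and 3 lower. Over all 28015 tested genes, 1.49% were called and 11.8% had an unadjusted p under 0.05. The lists were chosen with earlier results of these data known, so their counts are a description only. The 7 tested of 13 other hexose and vitamin C transporters gave 0 calls in limma, 1 of them with an unadjusted p under 0.05, and a median log2 fold change of -0.0018. The most abundant of them were SLC50A1, a sugar exporter of the SWEET family, at 1912 ± 92.4 normalised reads in SLC2A3 overexpression cells and 1915 ± 90.5 in empty vector cells, and SLC2A11, at 573 ± 55.5 and 549 ± 38.4 (SD, n = 3 each). The gene with an unadjusted p under 0.05 was SLC23A3, at 17.6 ± 3.88 in SLC2A3 overexpression cells and 6.72 ± 2.59 in empty vector cells. Its groups did not overlap, but the sums were only 54 and 20 reads (log2 fold change 1.31, 95% interval 0.23 to 2.38, limma adjusted p = 0.279). SLC2A2, SLC2A7, SLC2A12, SLC5A1, SLC5A4 and SLC5A10 did not pass the filter on low values.

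Of 10 tested genes that phosphorylate hexoses or remove the phosphate, 1 was called (list median log2 fold change 0.01). HK2, a hexokinase that traps glucose in the cell, had 3094, 3126 and 3009 normalised reads in SLC2A3 overexpression libraries, against 2645, 2411 and 2761 in empty vector libraries. All SLC2A3 overexpression values were above all empty vector values (log2 fold change 0.24, 95% interval 0.13 to 0.35, limma adjusted p = 0.0173). The HK2 call was lost without SLC2A3 overexpression replicate 1, 2 or 3 and without empty vector replicate 2, with limma adjusted p of 0.0138 to 0.116 over the 6 libraries left out in turn, and of 0.157 without both libraries highest in RN7SL1.

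Of 19 tested genes of transporter trafficking, 2 were lower and 0 higher in limma (list median log2 fold change -0.04), and 4 had an unadjusted p under 0.05. TXNIP, an arrestin-like protein that promotes removal of GLUT1 from the cell surface, had 2211, 2257 and 2174 normalised reads in SLC2A3 overexpression libraries, against 3955, 3912 and 4056 in empty vector libraries. Each SLC2A3 overexpression library was far below each empty vector library, at a log2 fold change of -0.84 (95% interval -0.95 to -0.74, limma adjusted p = 7.38e-12). SNX27, a sorting nexin that returns GLUT1 from endosomes to the surface, had 1901, 1800 and 1802 normalised reads in SLC2A3 overexpression libraries, against 2327, 2077 and 2078 in empty vector libraries (log2 fold change -0.23, limma adjusted p = 0.0394). The SNX27 groups did not overlap, but the call was lost without SLC2A3 overexpression replicate 2 or 3 and without empty vector replicate 1 or 3 (limma adjusted p of 0.0304 to 0.270 over the 6 libraries left out in turn) and with a pseudocount of 0.1 (0.0757).

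All 13 genes of ascorbate recycling were tested, and 1 was higher and 1 lower in limma (list median log2 fold change -0.05). CYB561A3, a lysosomal cytochrome that uses ascorbate to reduce iron, had 2581, 2526 and 2605 normalised reads in SLC2A3 overexpression libraries, against 3145, 3133 and 3171 in empty vector libraries. These groups were apart, at a log2 fold change of -0.29 (95% interval -0.40 to -0.19, limma adjusted p = 0.0012). TXN, the thioredoxin whose system can reduce dehydroascorbic acid, was at 5752, 5670.2 and 5973 in SLC2A3 overexpression libraries, against 5048, 5288 and 5032 in empty vector libraries (log2 fold change 0.18, limma adjusted p = 0.0374). The TXN groups did not overlap, and the call was lost without SLC2A3 overexpression replicate 1 or 3 and without empty vector replicate 1 or 3 (limma adjusted p of 0.0279 to 0.232 over the 6 libraries left out in turn), as well as with a pseudocount of 0.1 and with a replicate block.

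Beside SLC2A9, 4 of 11 genes of urate handling were tested, with 0 calls in limma and 0 at an unadjusted p under 0.05 (median log2 fold change -0.19). The most abundant, ABCC4, an exporter that also carries urate, had 599 ± 49.6 normalised reads in SLC2A3 overexpression cells and 662 ± 46.2 in empty vector cells, and PDZK1, a scaffold of urate transporters in kidney, had 23.7 ± 7.49 and 28.8 ± 12.5 (SD, n = 3 each). Beside SLC2A13, all 6 genes of inositol handling were tested, with 0 calls in limma and 2 at an unadjusted p under 0.05 (median -0.04). ISYNA1, the enzyme of inositol synthesis, had 3165 ± 140 normalised reads in SLC2A3 overexpression cells and 2957 ± 12.7 in empty vector cells, and SLC5A3, a sodium-coupled inositol transporter, had 1693 ± 45.0 and 1818 ± 34.0 (SD, n = 3 each). SLC5A3 was not among those 2 (limma unadjusted p = 0.0863). SLC5A11, in the same list, had 15.8, 8.63 and 11.7 normalised reads in SLC2A3 overexpression libraries, against 1.02, 0 and 5.01 in empty vector libraries. Its groups did not overlap, but it had only 17, 9 and 11 reads against 1, 0 and 5.

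**Figure D4:**
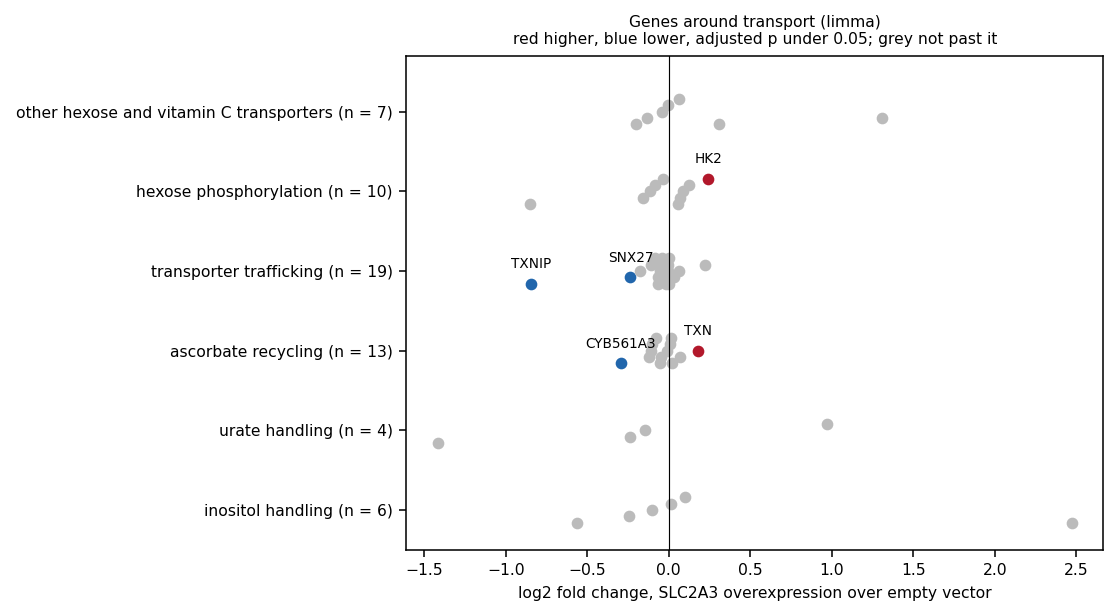
Log2 fold change (horizontal axis, SLC2A3 overexpression over empty vector) of the 59 tested genes in 6 lists around sugar and vitamin C transport, 1 point per gene, spread vertically only to keep points apart. Red and blue points passed limma at an adjusted p under 0.05, namely HK2 and TXN as higher and TXNIP, SNX27 and CYB561A3 as lower; the widest grey points are genes with few reads.

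Genes with profiles nearest to those of SLC2A3 and SLC2A9 were found among 11416 named protein-coding genes that were tested and averaged at least 50 normalised reads. Likeness was the root mean square difference over the 6 libraries of log2(value + 1) less its empty vector mean, a description with no test. For SLC2A3 these were HSPA1B, a stress-inducible chaperone, STC1, a secreted glycoprotein, H1-5, a linker histone, RGS2, a regulator of G-protein signalling, and DDIT4, an inhibitor of mTORC1, at differences of 0.263, 0.310, 0.397, 0.407 and 0.417. None of these 5 was as close to SLC2A3 as the profiles named below were to SLC2A9. The measure is not scaled to the size of a change, and the log2 fold changes were 1.70 for SLC2A3 and -0.30 for SLC2A9. The differences therefore cannot be compared between SLC2A3 and SLC2A9.

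HSPA1B had 517, 522 and 579 normalised reads in SLC2A3 overexpression libraries, against 233, 186 and 211 in empty vector libraries, and its reads are uncertain because HSPA1A is nearly identical. H1-5 had 157, 269 and 164 in SLC2A3 overexpression libraries, against 45.8, 80.0 and 48.1 in empty vector libraries. In both groups H1-5 was highest in replicate 2, the library highest in RN7SL1, whose part in this was not tested.

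For SLC2A9 the nearest profiles were those of PDGFA, a growth factor, NATD1 and CNNM3, at differences of 0.0232, 0.0356 and 0.0388. PDGFA had 1416, 1425 and 1580 normalised reads in SLC2A3 overexpression libraries, against 1820.2, 1798 and 1807 in empty vector libraries, and like SLC2A9 it was least reduced in SLC2A3 overexpression replicate 3. PDGFA and NATD1 passed the test (log2 fold changes -0.30 and -0.28, limma adjusted p = 0.0075 and 0.0260). CNNM3 did not (-0.25, limma adjusted p = 0.0827). These genes were picked for likeness to SLC2A9 in these same libraries, so their changes follow from the choice and are no separate evidence.

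**Figure D5:**
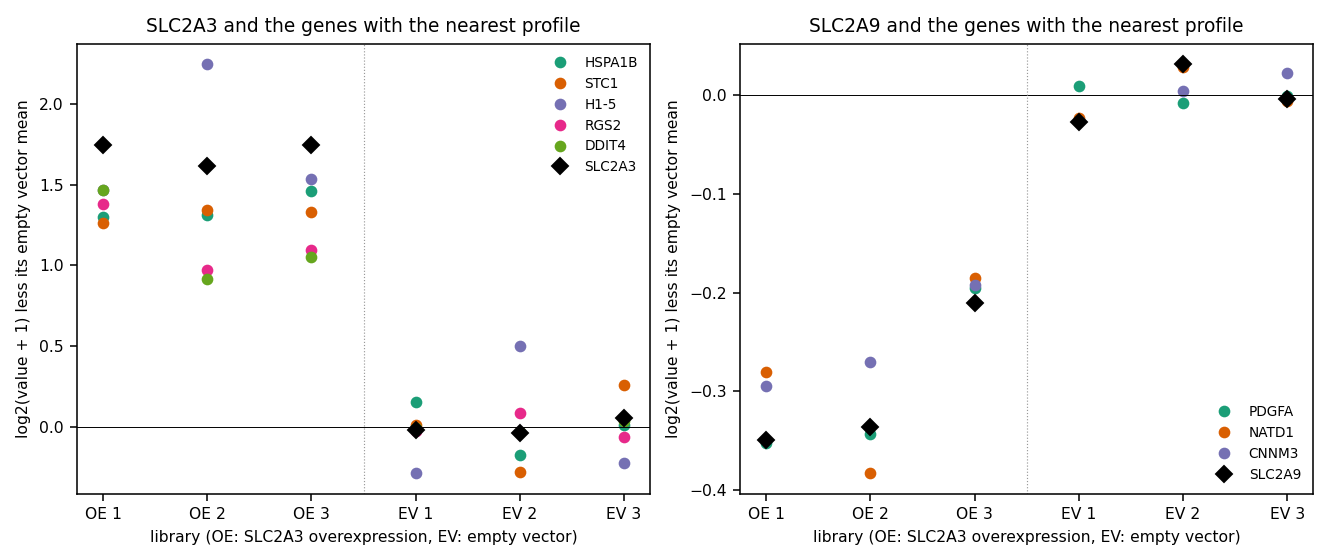
Log2(value + 1) less its empty vector mean (vertical axis) in each library for SLC2A3 with its 5 nearest genes (left) and for SLC2A9 with its 3 nearest genes (right), SLC2A3 overexpression libraries (OE) before empty vector libraries (EV). SLC2A9 and its 3 genes all lie lower in the 3 SLC2A3 overexpression libraries, least so in replicate 3. H1-5 is highest in replicate 2 of both groups. The nearest genes were picked for likeness in these same libraries.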

How the data were processed

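BWA, TopHat2 and hg38 appear in the submitters' processing notes, without roles or versions; the counter, annotation and strand setting are not given in the sources used here. Per the labels' protocols, RNA was isolated with Trizol and made into directional NEBNext Ultra II libraries. The deposited files give, for each of 60660 gene IDs, a normalised signal, which the authors did not describe further. From the values, 100% were whole multiples of 1 read's worth (tolerance 0.001 reads), with factors of 0.936 to 1.08 equal to DESeq2's median-of-ratios factors. Symbols matched 60641 IDs, and lengths and coordinates are from GENCODE 29 on GRCh38.

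Genes that reached 1 normalised read in 3 or more libraries were fitted as log2(value + 1) with limma 3.58.1 (trend, group only; R 4.3.3), adjusted by Benjamini-Hochberg over all 28015 genes, threshold 0.05. The added 1 makes fold changes of low genes smaller than a lower pseudocount does (SLC2A14, -0.16 against -0.18 with 0.1). Plain folds are ratios of means and are not on this scale. Recovered reads were also tested with edgeR 4.0.16 (quasi-likelihood) and DESeq2 1.42.0. All tests were first run on simulated data. No pair of replicates agreed within sampling noise (chi-square per gene 3.50 to 6.78). The labels leave it unsaid whether replicates came from different cultures; p-values therefore describe the spread among these libraries only, some of which may be technical. Numbers shared between groups paired no libraries.

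The members, lists and tests were chosen with earlier results of these data known. Named genes were all 10 members and, in each other list, the called genes (at most 4) or else the 2 with the highest mean. The nearest profiles of called members were also named (5 for SLC2A3, 3 for SLC2A9). The markers were named in addition, as were RN7SL1, HSPA1A, SLC23A3 and SLC5A11, chosen after values were seen. Marker lists for epithelial, fibroblast, T and NK, B, erythroid and megakaryocyte cells each summed to at most 293 normalised reads in any library, and 0 of their genes were called by limma, 1 having an unadjusted p under 0.05.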

Additional observations from a re-analysis of the deposited data

How the results depend on the processing

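The SLC2A3 log2 fold change lay between 1.68 and 1.74 and passed in all 17 alternatives: edgeR with 2 scalings, DESeq2, 2 pseudocounts, 2 filters, 2 rescalings, a replicate block, each of the 6 libraries left out, and both libraries highest in RN7SL1 left out, the last chosen after seeing the data. SLC2A9 passed in 8 of 17. It missed with a pseudocount of 0.1 (log2 fold change -0.30, limma adjusted p = 0.0601), with the replicate block (-0.30, 0.0585), without both RN7SL1-high libraries (-0.26, 0.160) and without any 1 library (-0.34 to -0.27), and members called lower were then 0. SLC2A1 and SLC2A5 passed in none (lowest adjusted p 0.0696 and 0.0847, in DESeq2). Direction turned, never past the threshold, when single libraries were left out, for SLC2A10 (-0.29 to 0.10), SLC2A13 (-0.086 to 0.19), SLC2A14 (-0.44 to 0.13) and SLC23A2 (-0.058 to 0.025), and for SLC2A13 also without both RN7SL1-high libraries (-0.23). The cause was not tested.

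All genes called were 194 higher and 224 lower, against 343 and 441 in DESeq2, 297 higher in edgeR with relative log expression factors, 144 lower with a pseudocount of 0.1, and 100 to 222 higher and 88 to 244 lower without 1 library. In the 6 other lists 2 genes were higher, 1 with a pseudocount of 0.1, with the replicate block or without both RN7SL1-high libraries, and 0 to 2 without 1 library; 3 were lower, 4 in DESeq2, 2 with a pseudocount of 0.1 and 2 to 4 without 1 library. Replicate numbers correlated at -0.079, -0.0022 and -0.0038 across 13277 genes, so the replicate block rests on shared numbers alone; it gave 167 genes higher and 196 lower. With the longest transcript, the SLC2A3 share per kb was 23.4% in SLC2A3 overexpression and 8.20% in empty vector cells (51.0% in SLC2A3 overexpression cells if the added reads lay on the coding sequence, a setting chosen after seeing the data), and 17 of 20 levels moved by more than 1 SD; equal totals and single libraries moved 0 of 80. Depth limits SLC2A14 and SLC23A1.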
